A study of Mus musculus with 73 samples.

Results

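The 271 regions described here are stretches of mouse liver chromatin where HNF6 peaks were listed in both livers that had lost Foxa1 and Foxa2 in adulthood and in none of 3 control livers. They were chosen by the peak calls themselves. The peaks of both adult null lists were merged, which gave 6423 regions, of which 3226 held a peak of each list. The 271 members of the set are those of the 3226 regions that overlapped no peak of any control list, 8.4% of them. Presence in the adult nulls and absence from the controls are therefore how the members were selected and not results, and no test was made of either. The number rests on single lists: it was 645 without control 1, 1481 when only adult null 2 was required and 636 when only adult null 1 was required.

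HNF6, the product of Onecut1, is a cut-homeodomain transcription factor that binds liver enhancers and promoters and is known for its role in hepatocyte and bile duct development. FOXA1 and FOXA2 are forkhead factors that can bind nucleosomal DNA and open it for other liver factors. At active enhancers, bound factors usually go with low DNA methylation.

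The adult nulls were Foxa1L/L;2L/L mice injected at 8 weeks of age with AAV8 carrying Cre under the hepatocyte promoter Tbg, and sampled 1 month later (Foxa1L/L;2L/L AAV Cre, 2 HNF6 libraries). The developmental nulls carried the same floxed alleles with the Alfp Cre transgene and were 8 weeks old (Foxa1L/L;2L/L Alfp Cre, 2 HNF6 libraries). The controls were Foxa1L/L;2L/L mice of 8 weeks without Cre (3 HNF6 libraries). They received no virus, so loss of FOXA, the virus and the extra month of age cannot be told apart between adult nulls and controls. Chromatin came from liver, in which cells that do not use the Tbg promoter would keep both genes. Methylation came from whole-genome bisulfite sequencing (WGBS) of hepatocytes with 2 libraries of each of the same 3 genotypes, and from 27 reduced representation bisulfite (RRBS) libraries, labelled liver and made from hepatocyte DNA per the labels' protocols. The RRBS libraries included 3 adult triple nulls and 3 controls of 9 weeks, taken 7 days after induction. A further 2 adult triple nulls and 2 controls of 12 weeks were taken 13 days after induction. All of these were on a Foxa3-/- background, with Cre induction in the nulls and GFP in the controls. After partial hepatectomy there were 3 adult double nulls and 2 controls of 12 weeks, these controls injected with AAV GFP. The others were 4 developmental nulls and 4 controls from 20 days to 6 months of age, and 2 FoxA1L/L;FoxA2L/+ and 2 FoxA1L/+;FoxA2L/+ livers of 8 weeks depleted in development, which enter only the level ranges and the spread of the tests. The labels do not say which libraries share an animal, and loss of FOXA and the labelled tissue could not be checked here, since no expression values were analysed.

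Adult null peaks came from MACS 1.4.3 on reads with duplicates removed and the other 5 lists from MACS 2.1.1, so the caller and the genotype cannot be told apart in any count that sets adult null lists against control or developmental null lists. The adult lists held 4028 and 5678 peaks with median widths of 307 and 320 bp. The developmental null lists held 3122 and 1188 peaks and the control lists 5767, 4652 and 1770, with median widths from 82 to 150 bp across these 5 lists. Redundant tags were filtered in the 5 MACS 2.1.1 libraries as well, at rates of 38% to 62%. ChIP tags after filtering numbered 16760874 to 30469386 per library, the fewest in developmental null 1 and the most in control 3. The share of peaks on the X and Y chromosomes was 16.2% and 8.51% in the adult null lists, 55.9% and 45.0% in the developmental null lists, and 13.9%, 16.9% and 45.5% in the control lists, so the developmental null libraries and control 3 stood apart in this measure.

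The members were weak peaks of the adult lists. Ranked by the authors' score within each list, none of the 271 was among the 500 strongest peaks of either list, and 2 and 1 were among the 1000 strongest of adult null lists 1 and 2. The median member ranked 3004 in list 1 and 3418 in list 2, whereas regions that overlapped a peak of all 3 control lists had median ranks of 650 and 675. When the 3226 regions were divided into 4 groups of nearly equal size by the sum of their ranks, the strongest group held 0 members in 807 regions and the next held 16 in 806 (1.99%). The group after that held 59 in 806 (7.32%), and the weakest held 196 in 807 (24.3%). Only 29 members lay in the upper part of both lists, at or above rank 2014 in list 1 and rank 2839 in list 2. These ranks come from the same calls that chose the members and are given as a description.

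**Figure D1:**
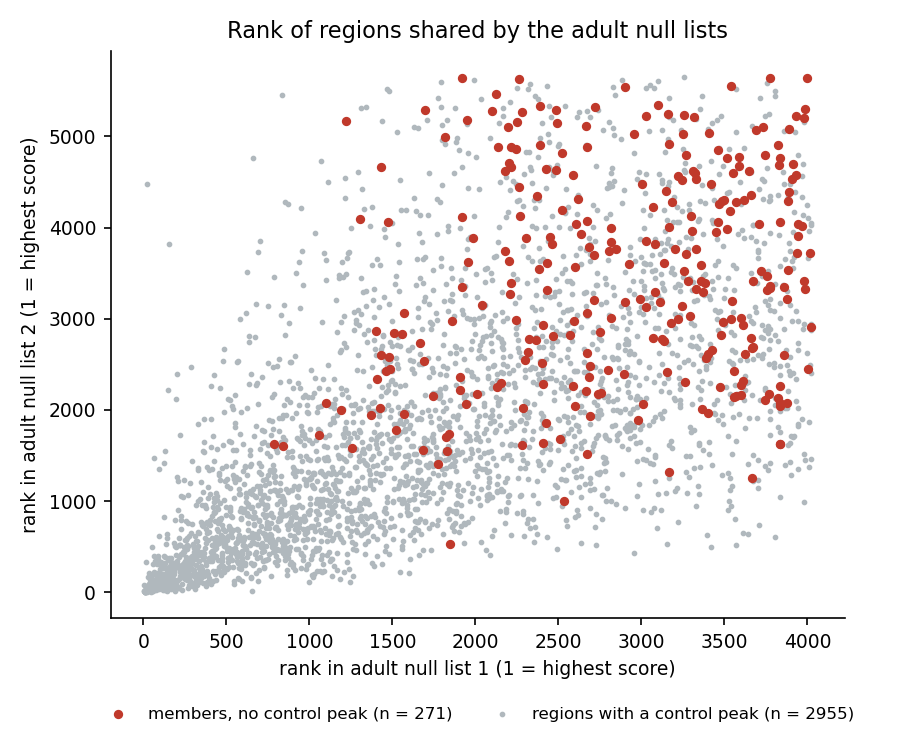
Each point is a region shared by the adult null lists, placed by its rank in list 1 (x axis) and list 2 (y axis), where 1 is the highest score; red points are the 271 members and grey points the 2955 regions with a control peak. Members are missing from the lower left corner, where both ranks are strong, and crowd toward the weak ranks.

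Tag counts and enrichment showed the same order. Members held a median of 24 tags in adult null 1 and 23 in adult null 2, against 54 and 57 in regions found in all 3 control lists. Their median fold enrichment over input, the authors' own value for a peak, was 16.2 in list 1 and 10.7 in list 2. It was 16.4 and 11.7 in regions with a peak in 1 control list, 19.4 and 16.5 with 2, and 26.6 and 24.0 with 3. Members were close to the 520 regions of 1 control list in tags, fold and width, and their median width of 321 bp compared with 334, 380 and 437 bp in regions of 1, 2 and 3 control lists. The false discovery rate that the caller attached to a member had a median of 76.6% in list 1 and 10.1% in list 2. No peak of list 1 had a rate of 5% or less, its lowest being 17.9%.

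**Figure D2:**
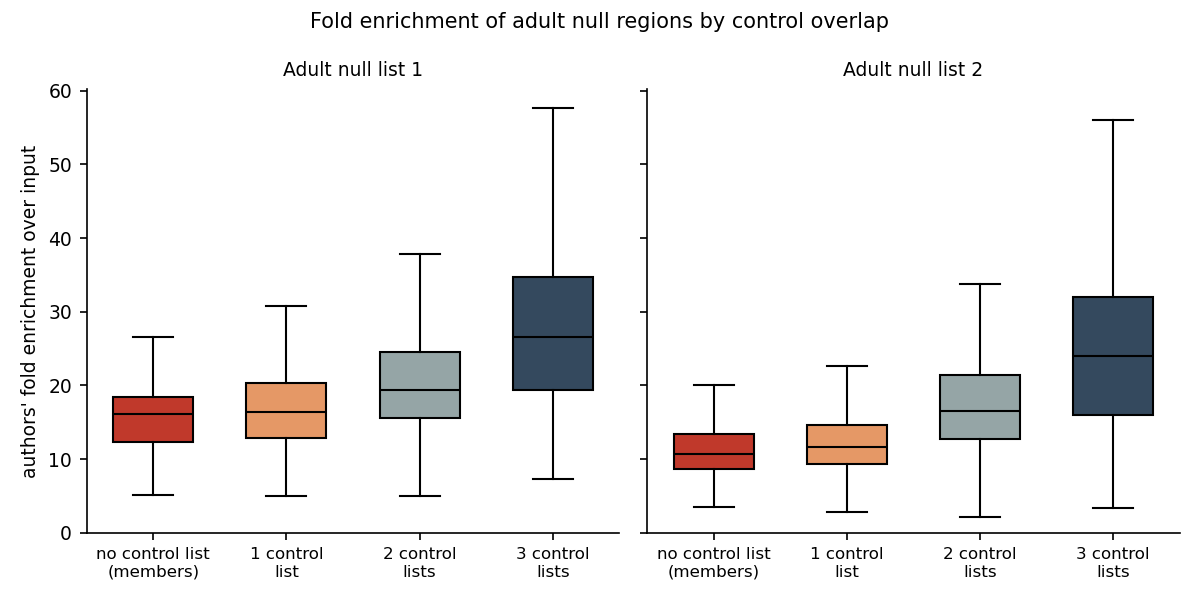
Boxes give the median and quartiles of the authors' fold enrichment over input (y axis) in adult null list 1 (left) and list 2 (right), for members and for regions with a peak in 1, 2 or 3 control lists; whiskers reach the last value within 1.5 box lengths and points beyond are not drawn. Members have the lowest medians, 16.2 and 10.7.

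The adult null libraries placed their peaks at nearly the same spot in most members. The summits of the adult null peaks lay within 50 bp of each other in 181 members (66.8%) and within 100 bp in 243 (89.7%), with a median gap of 31 bp. In regions of 3 control lists the median gap was 25 bp and 75.7% lay within 50 bp. Both values describe the peaks that formed the members, since a shared peak was required.

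The 10 members with the lowest rank sum illustrate the range. The region chr19:53478693-53479088 (mm9) had the lowest, with 31 tags and 17.3-fold enrichment in adult null 1 (rank 1848), and 54 tags and 32.0-fold enrichment in adult null 2 (rank 528). It was one of 5 members listed in both developmental null lists as well, at 6.40- and 5.38-fold, and it lay 376301 bp from the nearest control peak. The member chr4:60230893-60231350 had 47 and 36 tags and 26.6- and 21.4-fold enrichment, with a control peak 4156 bp away. The member chr17:73638836-73639241 had 46 and 34 tags and 26.6- and 14.7-fold enrichment, with no control peak within 444802 bp. The remaining 7 were chr12:113149295-113149689, chr13:75982309-75982632, chr14:121824644-121825080, chr14:31908040-31908412, chr5:8158966-8159359, chr7:106357272-106357592 and chr11:120998993-120999313. None of these 7 was in a developmental null list, and none of the 10 overlapped a FoxA site. No annotation of mm9 was used here, so neighbouring genes are not named.

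Most members lay far from any control peak. The median distance to the nearest control peak was 52975 bp, with quartiles of 5712 and 156920 bp and a range from 25 to 2721800 bp. There were 191 members (70.5%) more than 10000 bp away and 100 (36.9%) more than 100000 bp away. At the other end, 32 members lay within 1000 bp of a control peak, 24 within 500 bp and 12 within 150 bp. Measured against single lists, the median distance was 62961 bp to control 1, 85927 bp to control 2 and 386466 bp to control 3, which had the fewest peaks.

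Just inside the rule, the members nearest to a control peak were chr5:143073625-143074003 at 25 bp, chrX:123299885-123300182 at 36 bp and chr8:130863745-130864020 at 37 bp. Their fold enrichment was 11.1, 17.4 and 18.4 in list 1 and 7.82, 10.2 and 8.01 in list 2. Just outside it, the smallest overlaps with a control peak were 53 bp at chrX:122665899-122666111, 55 bp at chrX:53520258-53520398 and 56 bp at chr1:135491079-135492094. Their fold enrichment was 11.7, 8.16 and 15.1 in list 1 and 9.12, 4.72 and 4.62 in list 2.

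Members near a control peak differed in place from the others. Of the 32 members within 1000 bp of a control peak, 22 (68.8%) were on X or Y, and of the 48 members at 1000 to 10000 bp, 9 (18.8%) were. None of the 91 members at 10000 to 100000 bp and 3 of the 100 farther away were on these chromosomes. Fold enrichment differed less, with medians of 14.4 and 8.01 within 1000 bp and 16.4 and 11.0 beyond 100000 bp in lists 1 and 2.

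**Figure D3:**
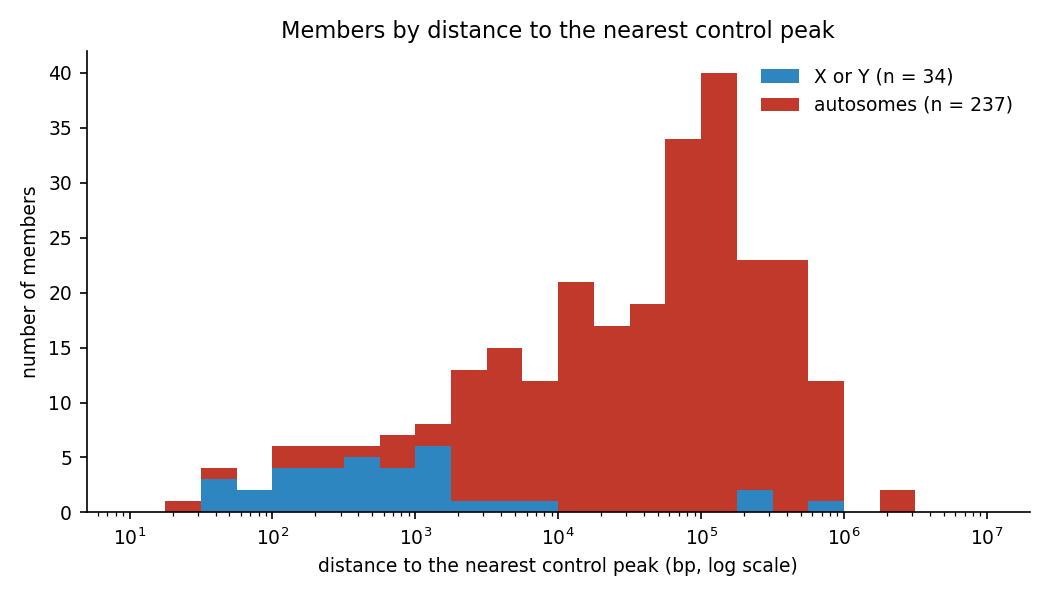
The histogram counts members (y axis) by distance to the nearest control peak in bp on a log axis, stacked as X or Y (blue, 34) and autosomes (red, 237). Most members on X or Y lie within 10000 bp of a control peak, and most autosomal members lie farther away.

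On chromosomes, 26 members were on X, which is 10.4% of its 250 shared adult regions, and 8 were on Y, 27.6% of its 29. Among autosomes the share ranged from 4.0% on chromosome 18 to 15.4% on chromosome 8, where 22 of 143 regions were members. Members were rarely clustered, with 4 within 1000 bp of another member, 39 within 100000 bp and a median gap of 2535910 bp. Of the 11 members wider than 700 bp, 7 were on X or Y, and of the 86 regions of this width among all shared adult regions, 52 were. The widest member, chrX:32100574-32103937, measured 3364 bp with 4.01-fold enrichment in list 2. That region and the other single members named outside the fixed naming rule were chosen after their values were seen.

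Presence in the developmental nulls was a readout the rule did not use. Of the 271 members, 38 (14.0%, Wilson 95% interval 10.4 to 18.7) overlapped a peak of developmental null 1 and 11 (4.06%, 2.28 to 7.12) a peak of developmental null 2, while 31.0% and 19.5% of all 3226 regions did. In all, 44 members (16.2%) were in either list and 5 in both. Members were close to the regions of 1 control list, of which 12.3% and 4.81% were in developmental null lists 1 and 2, and lower than regions of 3 control lists, of which 60.9% and 47.6% were. Intervals cover counting error only, and no test of the shares was made. With the rule applied to fewer lists, the shares in developmental nulls 1 and 2 were 20.5% and 8.91% without control 3, 5.54% and 1.08% without adult null 1, and 22.0% and 7.55% without adult null 2.

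Chromosome moved with this share. On X and Y, 21 of 34 members (61.8%) were in developmental null list 1 and 7 (20.6%) in list 2, where 78.9% and 53.4% of all 279 shared regions were. On autosomes, 17 of 237 members (7.17%) were in list 1 and 4 (1.69%) in list 2, where 26.5% and 16.3% of all 2947 shared regions were. Regions of 1 control list on autosomes were again close, at 6.38% and 1.06%. The part of the sex chromosomes in the pooled share was not tested beyond this split. By rank group, from the second strongest to the weakest, 6.25%, 13.6% and 14.8% of the 16, 59 and 196 members were in developmental null list 1, against 25.7%, 18.9% and 18.0% of the other regions of those groups. In list 2 the members had 6.25%, 3.39% and 4.08%, and the other regions 14.6%, 10.2% and 9.17%. Members were below the other regions in each group and list, with the smallest gap among the weakest regions in both lists.

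Within the developmental null lists, the members found there had fold enrichment near the middle of the list. In list 1 their fold enrichment ranged from 3.78 to 11.8 with a median of 6.50, against 6.31 for the whole list, and 25 of the 38 ranked above its middle, 17 of 21 on X and Y and 8 of 17 on autosomes. In list 2 the 11 members had a median of 5.70, against 5.98 for the whole list, and 3 of the 11 ranked above its middle. Their summits lay a median of 10 and 17 bp from the nearer of the adult null summits in developmental null lists 1 and 2. The members in both lists with the lowest rank sums, after the one on chromosome 19, were chrX:4241312-4242920, chrX:4754982-4755761, chrX:120657879-120658390 and chrX:4822781-4823966, with fold enrichment from 5.53 to 6.84 in developmental null 1 and from 4.12 to 5.70 in developmental null 2. These X regions had control peaks 359 to 1144 bp away, whereas the chromosome 19 region was the only autosomal member in both lists.

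**Figure D4:**
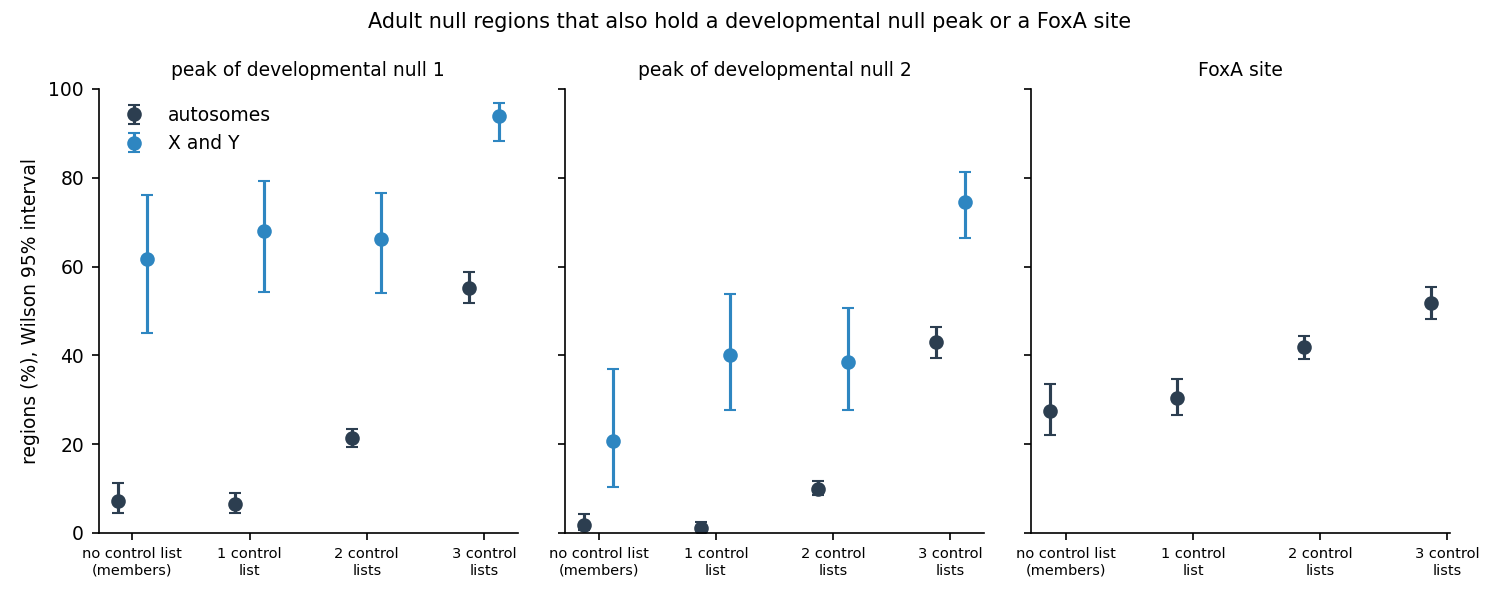
Points give the percent of regions (y axis) that hold a peak of developmental null 1 (left) or 2 (middle) or a FoxA site (right), with Wilson 95% intervals, for members and for regions of 1, 2 and 3 control lists; dark points are autosomes and blue points X and Y. Members and regions of 1 control list have similar autosomal shares, 7.17% and 6.38% for developmental null 1, and regions of 3 control lists have the highest.

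FoxA sites, the 400 bp sites at which the study tabulated WGBS levels, were less frequent in members than in the other shared regions. Of the members, 65 (24.0%, 19.3 to 29.4) overlapped a FoxA site, against 37.8% of all 3226 regions, and without adult null 2 the share was 15.9%. The site tables hold no site on X or Y, so on autosomes the share was 27.4% of 237 members (22.1 to 33.4), against 41.4% of 2947 regions. Autosomal regions of 1, 2 and 3 control lists overlapped a FoxA site in 30.4%, 41.8% and 51.8% of cases. By rank group, from the second strongest to the weakest, a site was overlapped by 18.8%, 20.3% and 25.5% of the 16, 59 and 196 members. The other regions of those groups had 43.8%, 34.9% and 28.6%. The members' share was thus below that of the other regions in each group, and the gap was smallest among the weakest regions. Within 1000 bp of a FoxA site there were 87 members (32.1%), and the median distance of a member to the nearest site was 5227 bp, against 2249, 723 and 0 bp in regions of 1, 2 and 3 control lists.

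The 5 members at a FoxA site with the lowest rank sums were chr1:88504603-88505039, chr2:77341550-77341934, chr11:29514480-29514877, chr10:17403589-17404012 and chr9:20666691-20667100. Their fold enrichment ranged from 12.2 to 20.4 in list 1 and from 10.9 to 18.7 in list 2. At the site of the chromosome 9 member the WGBS level was 3.00% and 6.25% in developmental nulls, 4.40% and 0% in adult nulls, and 6.19% and 5.07% in controls. At that of the chromosome 10 member it was 3.62% and 0% in developmental nulls, 1.52% and 0% in adult nulls, and 4.97% and 1.83% in controls. All libraries were low at both sites. Developmental nulls overlapped the other groups, while both adult null levels lay below both control levels at each site, and limma called neither site. One of the 4 sites in the chromosome 11 member was intermediate, with 62.2% and 42.5% in developmental nulls, 31.3% and 38.5% in adult nulls, and 43.6% and 43.5% in controls. The other sites of that member were low, and adult nulls and controls overlapped at each. One had 3.23% and 2.38% in adult nulls and 6.76% and 0.654% in controls. The rest had 3.57% and 10.0% in adult nulls and 5.88% and 8.16% in controls.

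In all, 93 FoxA sites lay in the 65 members, 44 members holding 1 site each, and 75 of these sites also had adult null values, because the adult table covers neither chromosome 1 nor chromosome 2. Some sites overlapped each other, and chr11:29514527-29514926 and chr11:29514581-29514980 had the same level in each of the 6 libraries. Counts of sites here and below therefore count some measurements more than once. Most sites were hardly methylated. The mean control level was under 10% at 61 of 93 sites and over 50% at 4, and the corresponding counts were 59 and 7 of 93 in developmental nulls and 51 and 4 of 75 in adult nulls. Averaged over the 93 sites, the level was 14.6% and 14.6% in the developmental nulls and 13.2% and 14.8% in the controls. Over the 75 sites with values in all 6 libraries it was 15.6% and 15.1% in developmental nulls, 12.4% and 13.4% in adult nulls, and 14.0% and 15.4% in controls. Over all 28654 common sites the level was 25.6% and 25.5% in developmental nulls, 19.8% and 20.3% in adult nulls, and 20.6% and 22.4% in controls. Low levels were not particular to members. At sites in regions of 1, 2 and 3 control lists the controls averaged 13.5%, 12.1% and 10.7%, against 14.7% at the 75 sites in members. Coverage is not in the tables, so the depth behind these levels is unknown.

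**Figure D5:**
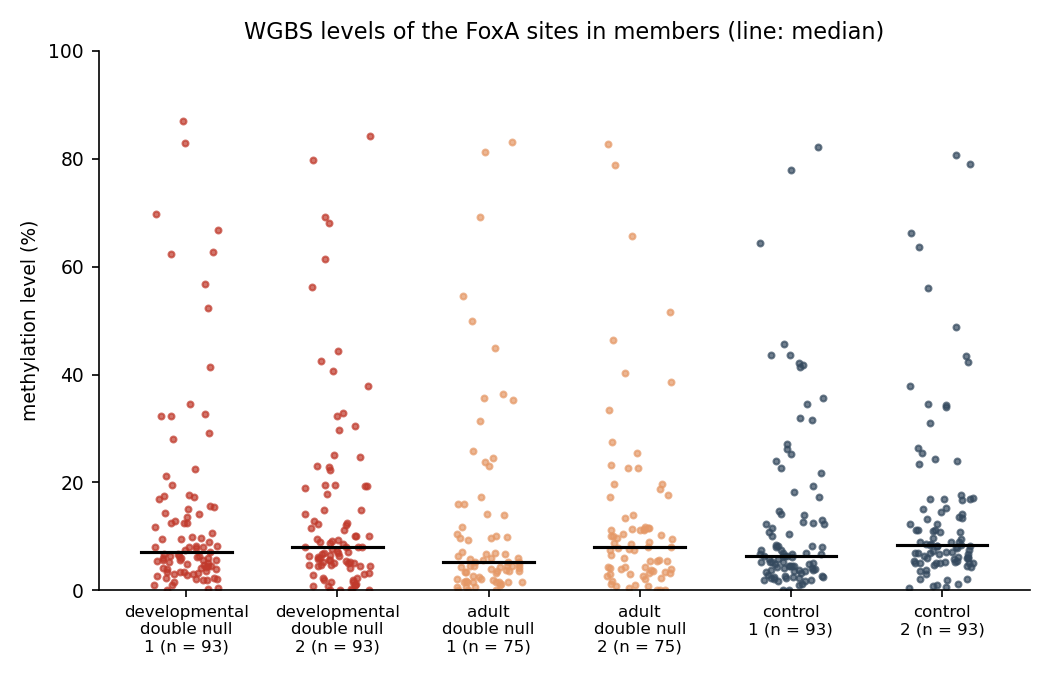
Points are the FoxA sites in members, with their WGBS level in percent (y axis) in each developmental null, adult null and control library; black lines are medians. All 6 libraries have medians from 5.26% to 8.47%, and 3 sites lie above 60% in every library.

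Of the sites in members, 3 were above 60% in every library. One, in the member chr10:60618703-60619037, had 87.0% and 84.1% in developmental nulls, 83.1% and 82.7% in adult nulls, and 82.1% and 80.7% in controls. The other sites, in the wide member chr11:88829244-88830878, overlapped each other and had mean levels of 81.4% and 67.5% in developmental nulls, 80.1% and 67.3% in adult nulls, and 78.5% and 63.9% in controls. That member was weak, at 6.79- and 3.82-fold.

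Adult nulls against controls, tested with limma over all 28654 common sites with Benjamini-Hochberg adjustment, gave no call at any site (0.0%), and so none among the 75 sites in members. The lowest adjusted p among them was 0.553. At an unadjusted p under 0.05 there were 4 of 75 sites in members, 1 higher and 3 lower, and 2299 of 28654 overall. The level was higher in adult nulls at 20 of the 75 sites and lower at 55, with a mean difference of -1.77 percentage points, against -1.42 over all sites. With 1 library left out it was between -2.47 and -1.06 points, the smallest without control 2. Regions of 1, 2 and 3 control lists had mean differences of -2.70, -2.71 and -2.74 points.

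Developmental nulls against controls gave 1 call among the 93 sites in members (1.08%), against 4.42% of all 33302 sites. The called site, chr15:41809297-41809696, was methylated at 69.8% and 69.1% in developmental nulls, and at 43.6% and 48.9% in controls. The difference was 23.2 points (SE 4.14, limma adjusted p = 0.0443), and the adult nulls had 50.0% and 33.5%. The member that holds it, chr15:41809314-41809625, had 25 and 18 tags, 20.8- and 10.7-fold enrichment, no peak in a developmental null list, and a nearest control peak 136433 bp away. It was also the single site in members on the authors' deposited list of sites called hyper-methylated, 1 of 93 (1.08%) against 8.12% of all tabulated sites. Of the sites in regions of 1, 2 and 3 control lists, 1.01%, 2.22% and 2.85% were on that list. That list was made from the same study and is not independent of the test. With either library of either group left out, the adjusted p of this site was between 0.205 and 0.249, and no site of the whole table passed.

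Of the 93 sites, 49 had a higher level in developmental nulls and 44 a lower one, with a mean difference of 0.54 points and a median of 0.24, whereas all sites had a mean difference of 4.16 and a median of 1.07. The members' mean difference was -0.27 points without control 1 and 1.34 without control 2, so its sign rested on 1 library. Sites in regions of 1, 2 and 3 control lists had mean differences of -0.31, 0.39 and 0.42 points, and 2 of 199, 13 of 944 and 9 of 702 were called. The direct comparison of developmental nulls with adult nulls called the same chromosome 15 site (27.7 points, SE 5.98, limma adjusted p = 0.0367) and no other of the 75, 1.33% against 8.03% of all 28654 sites. Of the sites in regions of 1, 2 and 3 control lists, 1.73%, 3.25% and 3.92% were called. With any 1 of the 4 libraries left out, the adjusted p of the chromosome 15 site was between 0.0532 and 0.155, so the call was lost. Developmental nulls were higher at 60 of the 75 sites, with a mean difference of 2.45 points, against 5.49 over all sites.

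RRBS came from separate libraries and gave a level per 100 bp tile. Some tiles in members lay inside FoxA sites, and the labels do not say whether animals were shared with WGBS. There were 113 tiles in 49 members (18.1%), and 64 tiles in 28 members had a value in all 27 libraries. Their mean level per library ranged from 4.35% to 12.5%, whereas the mean of all such tiles was above 52% in each group. Tiles in regions of 1, 2 and 3 control lists were low as well. In controls at 7 days after induction they averaged 4.72%, 7.51% and 9.05%, against 8.14% in members. Medians over the members' tiles were higher in the 8 age series libraries, at 3.11% to 3.71%, than in the other 19, at 0.28% to 1.20%. The groups tested against each other all come from those 19.

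The age series, with 1 library per age and genotype, gave means of 11.9% in the developmental null and 12.5% in the control at 20 days. At 8 weeks the developmental null had 9.54% and the control 10.1%. At 4 months the developmental null had 7.12% and the control 8.44%, and at 6 months the developmental null had 7.62% and the control 7.88%. The 20-day libraries had the highest means in both genotypes, with large differences at single tiles. The tile chr5:149560101-149560200 had 60.3% in the control and 40.8% in the developmental null at 20 days. At 8 weeks it had 10.8% and 10.2%. Other tiles went the other way, such as chr8:103380301-103380400, with 20.9% and 25.6% at 20 days and 31.25% and 44.8% at 8 weeks. A difference with age across the members' tiles was not tested.

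Adult triple nulls lacked Foxa3 and lost Foxa1 and Foxa2 after Cre, and their controls were Foxa1L/L;Foxa2L/L;Foxa3-/- mice given GFP, so both lacked Foxa3. At 7 days after induction, at 9 weeks of age, the 83 tiles in members measured in all 6 libraries averaged 8.40%, 7.42% and 9.81% in triple nulls, and 12.6%, 11.2% and 12.2% in controls. Every triple null mean lay below every control mean. The mean difference was -3.44 points and the median -1.19, whereas over all 480615 tiles the mean was 0.23 points. None of the 83 tiles passed limma's adjusted test, against 0.00416% of all tiles, and 7 of 83 had an unadjusted p under 0.05, all lower, against 19703 of all 480615 tiles. With tiles within 1000 bp of members, 250 in number, the mean difference was -0.93 points. Tiles in regions of 1, 2 and 3 control lists had mean differences of -1.28, -2.05 and -2.78 points.

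At 13 days, at 12 weeks of age, the 77 tiles in members averaged 6.99% and 6.24% in triple nulls, and 9.85% and 7.16% in controls, with a mean difference of -1.89 points. None passed limma's adjusted test, against 0.00747% of all 442000 tiles, and 3 of 77 had an unadjusted p under 0.05, all lower, against 20675 of all tiles. The size of the difference rested on single libraries: it was -0.24 points without control 1, -3.35 without control 2 and -1.24 without triple null 2. After partial hepatectomy, at 12 weeks, adult double nulls (Foxa1 and Foxa2 lost) averaged 12.0%, 12.7% and 12.7% over 79 tiles, and GFP controls 12.5% and 11.4%. The groups overlapped there, with a mean difference of 0.52 points, no tile past limma's adjusted test, against 0.00186% of all 482859 tiles, and 1 of 79 with an unadjusted p under 0.05, against 22529 of all tiles. That difference was -0.25 points without control 2, 1.07 without control 1 and 0.18 without double null 3, so its sign rested on 1 library.

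Of 739 regions found in both developmental null lists, 66 (8.93%) overlapped no control peak, and 10 of those 66 were found in both adult null lists. Overlap was judged there on merged developmental null regions, not on the merged adult regions that define members. The 10 need not be members, and their number need not equal the 5 members in both developmental null lists. Autosomes held 18 of those 66 and 237 of the 271 members. The lists themselves differed in this: 55.9% and 45.0% of developmental null peaks were on X or Y, against 16.2% and 8.51% of adult null peaks. The shares of all 739 regions on autosomes and in both adult null lists are not given here, so neither count can be set against them. Of 3541 regions found in controls 1 and 2, 430 (12.1%) overlapped no adult null peak, 320 of them on autosomes.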

How the data were processed

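The members and lists were chosen with earlier results of these data known. Each HNF6 library had its peaks called against a matching input, with MACS 1.4.3 at a p cutoff of 1e-05 for adult nulls and MACS 2.1.1 at a q cutoff of 0.05 for the other lists, per the file headers. The deposited adult lists give a tag count, a score, a fold enrichment (a ratio) and a false discovery rate in percent for each peak. The deposited MACS 2.1.1 lists give a pileup signal, a fold enrichment, and the p-value and q-value as −log10. Methylation levels were deposited by the authors as a fraction per 400 bp site (WGBS) or 100 bp tile (RRBS) and were multiplied by 100 here. Positions are mm9 and the tools named are Trim Galore 0.3.3, BSMAP 2.74 and Bowtie2 2.3.4.1, per the submitters' processing notes, with no assay or order. The step from reads to levels per site or tile is not known here.

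Peaks were merged and compared at 1 bp of overlap, ranks followed the score in adult lists and the p-value in the others, and intervals of shares are Wilson 95% intervals. In the adult WGBS table, one column carries the heading of developmental null 1 but equals control 2 (within 0.0001 points) at each of 28654 common sites, and it was left out. Levels of the adult nulls were joined to the developmental table. Levels in percent were tested with limma 3.58.1 in R 4.3.3 (variance trend, Benjamini-Hochberg at 0.05 over all sites or tiles). For RRBS, the spread came from all 27 libraries and tiles needed a value in every library compared. The ages of each age series group were pooled there, so differences with age enter the spread. Some of the fits, not all, were tried on simulated data with added changes far larger than the members' mean differences. The outcome is not given here, and smaller changes were not simulated. Regions were named by a fixed rule: the 10 lowest rank sums, 5 at a FoxA site, 5 in both developmental null lists, 3 on each side of the overlap rule, and called sites. The authors' 8 columns of RRBS group averages were not used, and the HNF4A and H3K27ac libraries were not analysed here. Replicates may be technical, since the labels do not say which libraries come from separate mice. Alternatives tried were control peaks widened or restricted, other site tables, a logit scale, a replicate block, and each library left out.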

Additional observations from a re-analysis of the deposited data

Results flagged for a closer look

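One result stood out because the developmental and adult nulls differed by a direct test. At the FoxA site chr15:41809297-41809696, in a member, the level was 69.8% and 69.1% in developmental nulls, and 50.0% and 33.5% in adult nulls, a difference of 27.7 points (SE 5.98, limma adjusted p = 0.0367). The adult null libraries differed from each other by more than the developmental null libraries did. With 1 of these 4 libraries left out, the adjusted p was between 0.0532 and 0.155. In the age series, the only groups of 4 libraries, no library's mean over members' tiles lay far enough from the others to stand out by Dixon's criterion. Each library of these groups had a different age, so this check cannot tell an outlying library from a difference with age.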

How the results depend on the processing

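Widening control peaks by 150 or 500 bp left 260 and 247 members, and requiring 50 bp of overlap left 271. Using the peaks of each adult list at or above its middle rank gave 29 members, with 3.45% in developmental null 1 and 17.2% at a FoxA site, and doing so for each control list gave 768 members. The share in developmental null 1 was 10.1% with control peaks widened by 500 bp. On autosomes alone, chosen after seeing the data, the shares in developmental nulls 1 and 2 were 7.17% and 1.69%. A FoxA site within 1000 bp was found for 32.1%. With 1 library left out, the number of members ranged from 303 to 1481, the share in developmental null 1 from 5.54% to 22.0%, in developmental null 2 from 1.08% to 8.91%, and at a FoxA site from 15.9% to 27.4%. The number was 645, 385 and 303 without control 1, 2 and 3, and 1481 and 636 without adult null 1 and 2. A false discovery rate of 5% or less could not be used, since adult null list 1 has no such peak.

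The 1 site called between developmental nulls and controls became 0 with the joined tables, 0 on the logit scale, and 0 with a replicate block (adjusted p = 0.0762 for the chromosome 15 site), and 3 among sites within 1000 bp of members. The 1 site called between developmental and adult nulls became 0 with a replicate block (adjusted p = 0.0522), 2 among sites with a control level of 5 to 95%, and 3 within 1000 bp. Leaving out 1 library gave 0 calls in members in all 6 methylation comparisons, lowest and highest alike. Over all sites, calls between developmental nulls and controls numbered 1472, against 1012 with the block, 2218 with joined tables and 3041 at control levels of 5 to 95%. No other site table could be used for developmental against adult nulls. Over all tiles, calls numbered 20, 33 and 9 at 7 days, 13 days and hepatectomy, against 14 to 43, 148 to 641 and 14 to 410 with 1 library left out, and 0 with the spread of the compared groups alone. On the logit scale, 104 tiles passed at 13 days. Calls between developmental and adult nulls over all sites numbered 2302, against 219 to 789 with 1 library left out. The adult null comparison and all RRBS comparisons stayed at 0 calls in members under the alternatives run. Equal replicate numbers did not pair libraries: the correlation of their deviations was between -0.04 and 0.01 for every pair, and in the 7-day comparison not every library matched its own number best. The cause of each change was not tested. Unknown coverage limits every level, and 2 or 3 libraries per group limit every test.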
